A study of Mus musculus with 4 samples.

Results

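The genes of lysosomal acidification and digestion were followed across the cells of mouse brown adipose tissue (BAT). The set held 43 of the 32285 counted genes and was chosen by symbol, with the cathepsins left out. It comprised 16 genes of the proton pump (6 of its V0 sector, 8 of its V1 sector and 2 accessory proteins), 4 genes of lysosomal membrane proteins, 15 hydrolases, 2 activator proteins, 2 other luminal glycoproteins and the 4 genes of the Tfeb family of transcription factors. All 43 are protein-coding genes and all were found in the annotation.

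The data were single-cell RNA-seq counts of the stromal vascular fraction (SVF) of BAT, the immune, stromal and vascular cells left once adipocytes are removed. There were 4 libraries of 1 group each, all recorded as strain C57BL6/J. They came from wild-type mice aged 10 weeks (WT), mice of genotype db/db aged 8 weeks and 16 weeks (8-week db/db and 16-week db/db, marked 8w and 16w in the plots), which carry a leptin receptor mutation and become obese and diabetic, and mice on a high-fat diet (HFD), recorded with an age of 10 weeks. The study began the diet at that age, so the age of the HFD mice at sampling is not settled by the record. Each library pooled the SVF of several mice, so no group had replicates. The questions were which macrophages of BAT hold more RNA of these genes, how the genes compare with those of other lineages, and how they differ between WT and the obese mice.

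The lysosome is the acidic organelle in which cells break down engulfed particles, lipids and worn-out organelles. Its acidity is made by the V-ATPase, a rotary pump in which the V1 sector splits ATP in the cytosol and the V0 sector carries protons across the membrane. The hydrolases inside work at low pH, and Tfeb, Tfe3, Mitf and Tfec are related transcription factors of which Tfeb is best known for switching on lysosomal genes through E-box sequences in their promoters. Macrophages are rich in lysosomes, and in fat they take up lipid that adipocytes release.

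Between 5462 and 11648 cells per library passed the limits on genes, unique molecular identifiers (UMIs, counts of single RNA molecules) and mitochondrial share, with 26558173 to 53420105 UMIs per library and medians of 2733 to 6218.5 UMIs per cell. The mitochondrial limit removed 68.5% of HFD barcodes and 1.04% of 16-week db/db barcodes. The study used male mice, but the 16-week db/db library held 207 UMIs of Xist per 1e+06 UMIs of the library (CPM), against 0.187 to 0.688 CPM in the other 3, and 17.7 CPM of 4 Y-linked genes against 164 to 188 CPM. The library labelled 16-week db/db therefore stood apart, and counts are given with and without it. Pairs of libraries shared 16 to 97 barcodes. The mutated receptor gene of the db/db line, Lepr, had 25 UMIs in WT, 16 in 8-week db/db, 1 in 16-week db/db and 8 in HFD, too few to check the labels. RNA of 5 adipocyte genes, which SVF cells should lack, summed to 47.4 CPM in the macrophages of HFD and to 1.27 to 11.5 CPM in those of the other libraries.

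Cells were sorted into lineages by marker UMIs that included none of the 43 genes. The macrophage gate held 999 cells in WT, 2564 in 8-week db/db, 2217 in 16-week db/db and 1517 in HFD. Within it, lipid-associated macrophages (LAMs) were gated on Trem2, Cd9, Gpnmb, Spp1, Fabp5 and Mmp12, and perivascular macrophages (PVMs) on Lyve1, Folr2, Cd163, Timd4, Cbr2 and F13a1. LAMs numbered 9 in WT, 637 in 8-week db/db, 1441 in 16-week db/db and 1073 in HFD, and PVMs 843, 1378, 328 and 66. LAMs and PVMs were compared with UMIs summed per library and gate, the library as a block and edgeR's quasi-likelihood test, with Benjamini-Hochberg adjustment over all genes tested and a threshold of 0.05. WT had too few LAMs to enter, so 3 libraries did, and values below are in the order 8-week db/db, 16-week db/db and HFD.

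Most proton pump genes were higher in LAMs. Of the 14 V0 and V1 genes, 12 were higher in LAMs than in PVMs and none lower, whereas only 1 of the 15 hydrolases, Gusb, passed the test. Both activators and Creg1 were higher too, and 2 membrane proteins and 2 Tfeb family genes were lower. Over all 43 genes, 17 were higher and 4 lower, and their median log2 fold change was 0.31. Among the 9214 genes tested, 18.8% were higher and 16.7% lower and the median was 0.0063. Without the 16-week db/db library the test called 17 of the 43 higher and 3 lower. With no filter on low values, in place of a limit of 5 CPM on average, it called 21 higher and 4 lower. That setting added Atp6v0d1, Atp6ap1, Gla and Naglu. With each cell thinned to 1000 UMIs it called 12 higher and 0 lower, without Atp6v0b, Atp6v1d and Atp6v1f of the pump.

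**Figure D1:**
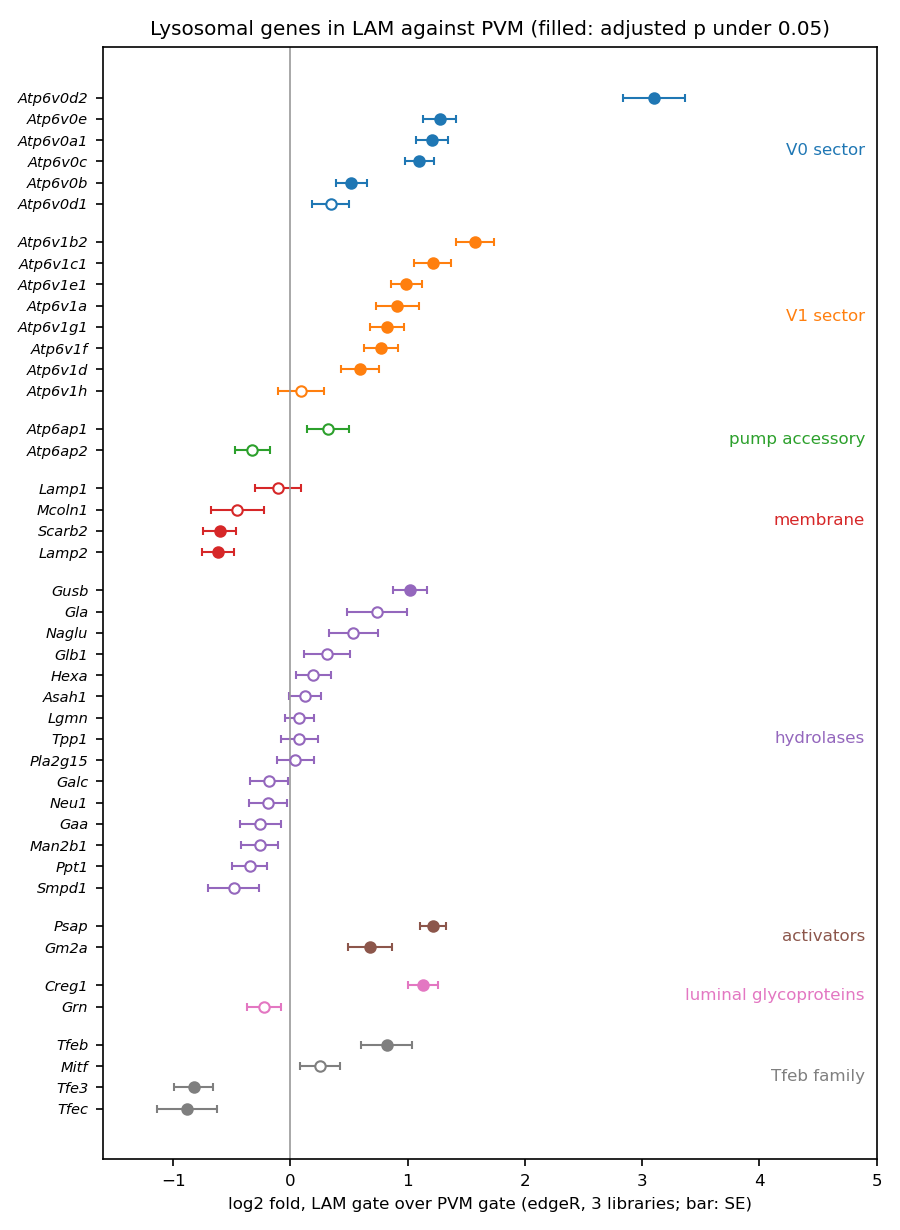
Log2 fold change of each gene in the LAM gate over the PVM gate (x axis) for the 43 genes by group (y axis, colours), from edgeR over 3 libraries, with SE as bars and filled points for adjusted p under 0.05. The V0 and V1 genes lie to the right of 0 (0.09 to 3.10), the membrane genes to the left, and the hydrolases on both sides, from -0.48 to 1.02.

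The V0 sector carried the largest difference, that of Atp6v0d2 (ENSMUSG00000028238, chromosome 4, 19876841 to 19922605, minus strand), which encodes a form of the d subunit known from osteoclasts and macrophages. Its level in LAMs was 504, 307 and 644 CPM, against 53.8, 28.2 and 152 CPM in PVMs. Each LAM value exceeded each PVM value, and the log2 fold change was 3.10 ± 0.26 (SE), edgeR adjusted p = 6.74e-05. The ubiquitous form of the same subunit, Atp6v0d1 (ENSMUSG00000013160, chromosome 8, 105524465 to 105566047, minus strand), gave 134, 180.3 and 115 CPM in LAMs and 122, 191 and 62.7 CPM in PVMs. These ranges overlapped, 16-week db/db went the other way, and the log2 fold change of 0.34 ± 0.16 (SE) did not pass (edgeR, adjusted p = 0.114). Atp6v0d1 did pass with no filter on low values. Atp6v0e, a small membrane subunit, reached 478, 655 and 529 CPM in LAMs and 245, 305 and 205 CPM in PVMs. The LAM values lay above all PVM values, with a log2 fold change of 1.27 ± 0.14 (SE) (edgeR, adjusted p = 2.47e-05). Of the other V0 genes, Atp6v0a1 (the large proton channel subunit, 1.21), Atp6v0c (the proteolipid of the rotor ring, 1.10) and Atp6v0b (a second ring subunit, 0.52) were higher on the log2 scale as well. Atp6v0c has 2 annotated processed pseudogenes that were not among the counted genes, so its reads are less certain. Without 16-week db/db Atp6v0b did not pass (0.42, edgeR adjusted p = 0.0934).

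In the V1 sector 7 of 8 genes were higher in LAMs. Atp6v1b2, a subunit of the ATP-splitting head, stood at 348, 282 and 373 CPM in LAMs and 160.1, 95.3 and 112 CPM in PVMs. There was no overlap, and the log2 fold change was 1.57 ± 0.16 (SE), edgeR adjusted p = 1.5e-05. Atp6v1c1, which joins the head to the stalk, had 145, 109 and 182 CPM in LAMs and 72.8, 59.9 and 59.4 CPM in PVMs. Again every LAM value was above every PVM value (log2 fold change 1.22 ± 0.16 (SE), edgeR adjusted p = 9.67e-05). The exception was Atp6v1h, a regulatory subunit of the stalk, with 75.5, 76.1 and 90.9 CPM in LAMs and 78.2, 58.5 and 142 CPM in PVMs. Only 16-week db/db was higher in LAMs, and the log2 fold change was 0.09 ± 0.20 (SE) (edgeR, adjusted p = 0.761). The other 5, Atp6v1e1, Atp6v1a (the catalytic subunit), Atp6v1g1, Atp6v1f and Atp6v1d, had log2 fold changes of 0.59 to 0.99 and passed the test. Atp6v1d did not pass under a stricter gate that allowed at most 1 marker of any other lineage (0.56, edgeR adjusted p = 0.0516), and with thinned cells neither it (0.62, adjusted p = 0.404) nor Atp6v1f did (0.92, adjusted p = 0.0721).

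The accessory proteins, which help assemble the pump, did not pass. Atp6ap2, the prorenin receptor, had 157, 116 and 160.5 CPM in LAMs and 199.9, 214 and 172 CPM in PVMs, and was lower in LAMs in all 3 libraries without overlap (log2 fold change -0.32 ± 0.15 (SE), edgeR adjusted p = 0.108). Atp6ap1 had 149.6, 96.6 and 179 CPM and 155, 101 and 92.4 CPM, and was higher in LAMs in HFD alone (log2 fold change 0.32 ± 0.18 (SE), edgeR adjusted p = 0.18). Atp6ap1 did pass with no filter on low values.

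**Figure D2:**
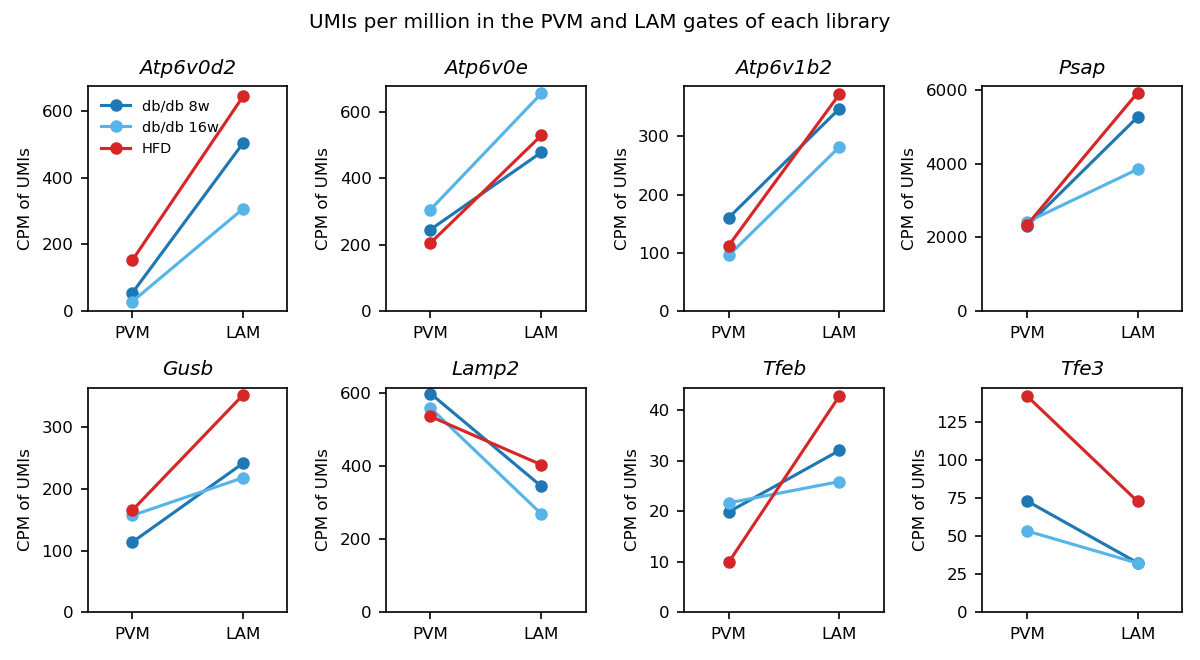
CPM (y axis, from 0) in the PVM and LAM gates (x axis) of 8-week db/db, 16-week db/db and HFD, 1 line per library, for 8 of the genes. The lines of Atp6v0d2, Atp6v0e, Atp6v1b2, Psap, Gusb and Tfeb climb from PVM to LAM in all 3 libraries, and those of Lamp2 and Tfe3 descend.

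All 4 membrane proteins had log2 fold changes below 0, and 2 passed the test. Lamp2, a major glycoprotein of the lysosomal membrane with a role in chaperone-mediated autophagy, had 344, 269 and 403 CPM in LAMs and 597, 558 and 535 CPM in PVMs. All LAM values were below all PVM values, and the log2 fold change was -0.62 ± 0.14 (SE), edgeR adjusted p = 0.00438. Scarb2, the receptor that carries glucocerebrosidase to lysosomes, had 55.0, 77.6 and 78.7 CPM in LAMs and 94.5, 138 and 119 CPM in PVMs. Here too the groups did not overlap (log2 fold change -0.60 ± 0.14 (SE), edgeR adjusted p = 0.00526). Lamp1, the companion of Lamp2, had 1044, 1079.7 and 1007 CPM in LAMs and 1310.3, 1918 and 733 CPM in PVMs. It was lower in LAMs in both db/db libraries and higher in HFD (-0.11 ± 0.20 (SE) on the log2 scale, edgeR adjusted p = 0.716). The calcium channel Mcoln1 had a log2 fold change of -0.45 ± 0.22 (SE) and did not pass (edgeR, adjusted p = 0.131). Without 8-week db/db Scarb2 did not pass (-0.54, edgeR adjusted p = 0.0959), and without HFD Lamp1 did (-0.41, adjusted p = 0.038). Lamp2 did not pass under the stricter gate (-0.49, edgeR adjusted p = 0.125).

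As a group the hydrolases differed little, with a median log2 fold change of 0.07 over 15 genes. The called gene was Gusb (ENSMUSG00000025534, chromosome 5, 129989011 to 130003049, minus strand), the beta-glucuronidase of glycosaminoglycan breakdown. Its values were 241, 218 and 352 CPM in LAMs and 114, 157 and 165 CPM in PVMs, which did not overlap (log2 fold change 1.02 ± 0.15 (SE), edgeR adjusted p = 0.000227). Gla, the alpha-galactosidase of glycolipid breakdown, came next with 81.9, 60.0 and 99.1 CPM in LAMs and 59.8, 22.4 and 102 CPM in PVMs. It was higher in LAMs in both db/db libraries only, and its log2 fold change of 0.74 ± 0.25 (SE) missed the threshold (edgeR, adjusted p = 0.0508). Pla2g15, the lysosomal phospholipase, had 81.6, 27.9 and 85.5 CPM in LAMs and 78.2, 32.5 and 102 CPM in PVMs. Its difference was the smallest of the hydrolases (0.04 ± 0.16 (SE) on the log2 scale, edgeR adjusted p = 0.875). The other 12 lay between -0.48 (Smpd1, acid sphingomyelinase) and 0.54 (Naglu, which degrades heparan sulfate). They include Lgmn, an asparagine-specific protease at 890.1 to 1261 CPM in LAMs and 726 to 1643 CPM in PVMs. Gla passed without 8-week db/db (0.90, edgeR adjusted p = 0.00861) and without HFD (0.93, adjusted p = 0.0415), and Naglu without 16-week db/db (0.77, adjusted p = 0.0182). Both passed with no filter on low values, Gla also under the strict gate and Naglu also without the mitochondrial limit.

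Both activators, which lift lipids out of membranes for the hydrolases, were higher in LAMs. Psap (ENSMUSG00000004207, chromosome 10, 60277627 to 60302597, plus strand) gives rise to the saposins and had 5269.6, 3851 and 5931 CPM in LAMs and 2303, 2413 and 2327 CPM in PVMs. The PVM values of the 3 libraries lay close together, all LAM values lay above them, and the log2 fold change was 1.22 ± 0.11 (SE), edgeR adjusted p = 6.09e-06. Gm2a, the activator for the GM2 ganglioside, had 199, 143 and 233 CPM in LAMs and 90.9, 130.0 and 205 CPM in PVMs. It was higher in LAMs within each library, though the ranges overlapped (log2 fold change 0.68 ± 0.19 (SE), edgeR adjusted p = 0.0167). Of the luminal glycoproteins, Creg1, a small secreted and lysosomal protein, had 563, 495 and 812 CPM in LAMs and 268, 274 and 399 CPM in PVMs. These did not overlap (log2 fold change 1.13 ± 0.13 (SE), edgeR adjusted p = 3.09e-05). Grn, the progranulin gene, had 909.7, 994 and 1022 CPM in LAMs and 1152, 1782 and 957 CPM in PVMs. It was lower in LAMs in both db/db libraries and slightly higher in HFD (-0.23 ± 0.14 (SE) on the log2 scale, edgeR adjusted p = 0.242). Without 8-week db/db Gm2a did not pass (0.34, edgeR adjusted p = 0.289), and without HFD Grn did (-0.42, adjusted p = 0.036).

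The Tfeb family was split. Tfeb (ENSMUSG00000023990, chromosome 17, 47737030 to 47792419, plus strand) had 32.0, 25.9 and 42.8 CPM in LAMs and 19.9, 21.7 and 9.90 CPM in PVMs. LAM values were above all PVM values, the lowest of which, in HFD, rested on 3 UMIs, and the log2 fold change was 0.82 ± 0.22 (SE), edgeR adjusted p = 0.0119. Tfe3 (ENSMUSG00000000134, chromosome X, 7762560 to 7775202, plus strand) went the other way, with 32.5, 32.3 and 72.7 CPM in LAMs and 73.1, 53.4 and 142 CPM in PVMs. It was lower in LAMs within each library (log2 fold change -0.83 ± 0.17 (SE), edgeR adjusted p = 0.00235). Tfec (ENSMUSG00000029553, chromosome 6, 16833373 to 16898441, minus strand), a member mostly confined to myeloid cells, had 13.02, 5.60 and 5.23 CPM in LAMs and 23.3, 15.9 and 6.60 CPM in PVMs. It was also lower in LAMs in all 3 libraries, with 2 UMIs behind the HFD value of PVMs (log2 fold change -0.88 ± 0.26 (SE), edgeR adjusted p = 0.0184). Mitf (ENSMUSG00000035158, chromosome 6, 97807052 to 98021349, plus strand) had 89.7, 30.9 and 112 CPM in LAMs and 63.9, 36.8 and 122 CPM in PVMs. Only 8-week db/db was higher in LAMs (0.25 ± 0.17 (SE) on the log2 scale, edgeR adjusted p = 0.272). Apart from thinning, the calls of Tfec and Tfeb depended on the setting. Tfec did not pass without 8-week db/db (-1.02, edgeR adjusted p = 0.155), without 16-week db/db (-0.72, adjusted p = 0.136) by DESeq2 (-0.87, adjusted p = 0.117) or under the strict gate (-0.91, edgeR adjusted p = 0.0808). Tfeb did not pass under the strict gate either (0.51, edgeR adjusted p = 0.17).

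Depth differed between the gates, with medians of 9809, 8236 and 7209 UMIs per LAM and 4565, 3574.5 and 4162.5 per PVM. With every cell thinned to 1000 UMIs before gating, 211, 395 and 417 LAMs and 937, 181 and 23 PVMs were left, and edgeR's test called 12 genes higher and 0 lower (15 and 2 at an unadjusted p under 0.05). The genes that thinning no longer called higher were Atp6v0b, Atp6v1d, Atp6v1f, Gm2a and Tfeb. DESeq2, run on all UMIs, called 17 higher and 3 lower. RNA of the 8 stromal markers was lower in LAMs too, at 346, 23.3 and 469 CPM against 570, 37.5 and 627 CPM in PVMs. None of the 8 was at 0 in LAMs and 1 was at 0 in PVMs of 16-week db/db and of HFD. The 8 macrophage markers were at 4104 to 7786 CPM in LAMs and 10884 to 12765 CPM in PVMs, with none at 0. The part of depth and of these RNAs in the differences was not tested.

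Of 59 other lysosomal genes, 54 were tested in LAMs against PVMs, and 21 were higher and 6 lower, with a median log2 fold change of 0.23. The largest was Igf2r, the receptor that carries mannose-6-phosphate tagged enzymes to lysosomes (2.09 ± 0.18 (SE), edgeR adjusted p = 2.87e-06). Next were Gnptab, which makes that tag (1.92 ± 0.22 (SE), edgeR adjusted p = 4.15e-05), and Lipa, the acid lipase of lysosomal lipid breakdown (1.77 ± 0.13 (SE), edgeR adjusted p = 8.96e-07). Lipa had 827, 615 and 1335 CPM in LAMs and 232, 244 and 409 CPM in PVMs and is one of the genes by which the study describes LAMs, so it is not independent of their naming.

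The promoters of the set were searched for the E-box to which the Tfeb family is known to bind. The RefSeq table for GRCm38.p6, with 250 bases before and 50 after each start, held 37 of the 43 genes and lacked Atp6v0d2, Atp6v1b2, Atp6v1c1, Atp6v1g1, Atp6v1h and Asah1. Either strand was read, so TCACGTG includes its reverse complement, and each extended motif contains the shorter one. The core CACGTG was found in 11 of the 37 genes (29.7%), against 9 of 47 other lysosomal genes (19.1%) and 8.09% of all 27025 genes. TCACGTG was found in the same 11 genes, against 9 of 47 other lysosomal genes and 4.29% of all genes. TCACGTGA was found in 5 of 37 (13.5%), against 6.38% of the other lysosomal genes and 1.12% of all genes. The 11 were 4 of 11 pump genes, 5 of 16 hydrolases and activators and 2 of 4 membrane genes, and none of the 4 Tfeb family genes. Windows are shown for genes with the motif wholly upstream of the RefSeq start, to let its place be seen. They run 5′ to 3′ on the strand of the gene with CACGTG in capitals (further copies in a window stay in lower case).
Atp6v0b (chr4:117887340-117887385, minus strand): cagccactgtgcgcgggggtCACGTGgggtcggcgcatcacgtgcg
Atp6v1a (chr16:44139365-44139410, minus strand): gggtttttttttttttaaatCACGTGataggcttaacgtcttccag
Lamp1 (chr8:13159080-13159125, plus strand): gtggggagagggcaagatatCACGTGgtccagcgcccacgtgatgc
Mcoln1 (chr8:3500454-3500499, plus strand): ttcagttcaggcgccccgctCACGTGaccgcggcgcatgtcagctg
Gla (chrX:134601207-134601252, minus strand): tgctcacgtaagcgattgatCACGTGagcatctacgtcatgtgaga
Lgmn (chr12:102439116-102439161, minus strand): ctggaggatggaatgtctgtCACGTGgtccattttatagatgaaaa
Naglu (chr11:101070001-101070046, plus strand): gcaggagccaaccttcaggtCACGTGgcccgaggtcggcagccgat
Gaa (chr11:119267803-119267848, plus strand): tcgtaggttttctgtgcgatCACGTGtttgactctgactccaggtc
Glb1 (chr9:114401010-114401055, plus strand): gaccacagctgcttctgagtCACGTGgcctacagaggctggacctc

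The E-boxes shown began 36 bases before the RefSeq start in Atp6v0b, 131 in Atp6v1a, 61 in Lamp1, 45 in Mcoln1 and 227 in Gla. In the annotation that gave the gene coordinates, Atp6v1a, Mcoln1, Lgmn and Naglu begin further upstream, and the E-boxes shown for them lie within the gene. Lamp1 held 4 of them and Atp6v0b, Mcoln1 and Gla 2 each. Those of Atp6v0d1 and Atp6v0e overlapped or followed the start. Of the 11 genes with TCACGTG 3 were higher in LAMs (Atp6v0b, Atp6v0e and Atp6v1a), and of the 26 without it 10 were. Of the 6 with no promoter entry, Atp6v0d2 among them, 4 were higher and could not be placed on either side. The share of all 9214 genes tested was 18.8%. A match is a match of letters, and binding was not measured.

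Next, macrophages were compared with the other lineages of BAT. Macrophages held more RNA of most of the set than stromal cells, endothelial cells and T and NK cells. Of the 43 genes, 35 were higher and 1 lower than in stromal cells over 4 libraries, with a median log2 fold change of 1.503. In that comparison 25.2% of all 10246 genes tested were higher and 27.9% lower, with a median of 0.02. Against endothelial cells (3 libraries) 38 were higher and 0 lower with a median of 2.16, where 21.5% of 9996 genes were higher and 19.4% lower. At an unadjusted p under 0.05 the count of lower genes there was also 0, and DESeq2 gave 0. Against T and NK cells (3 libraries, 24 to 69 cells each) 42 were tested, and 35 were higher and 0 lower, where 16.8% of 9515 genes were higher and 8.30% lower. Neither an unadjusted p under 0.05 nor DESeq2 called a gene of the set lower. Some genes passed the filter on low values through macrophages alone, namely Tfec against stromal and endothelial cells and Atp6v0a1, Gaa, Naglu, Mcoln1 and Pla2g15 against T and NK cells. Of the genes at 5 CPM or more in both gates, 34 of 42, 37 of 42 and 31 of 37 were higher, with a median log2 fold change of 2.39 in the last. Among all genes at that level, 2155 of 8416, 1829 of 8271 and 1122 of 7664 were higher. Without the 16-week db/db library the counts of higher genes were 34, 37 and 34.

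**Figure D3:**
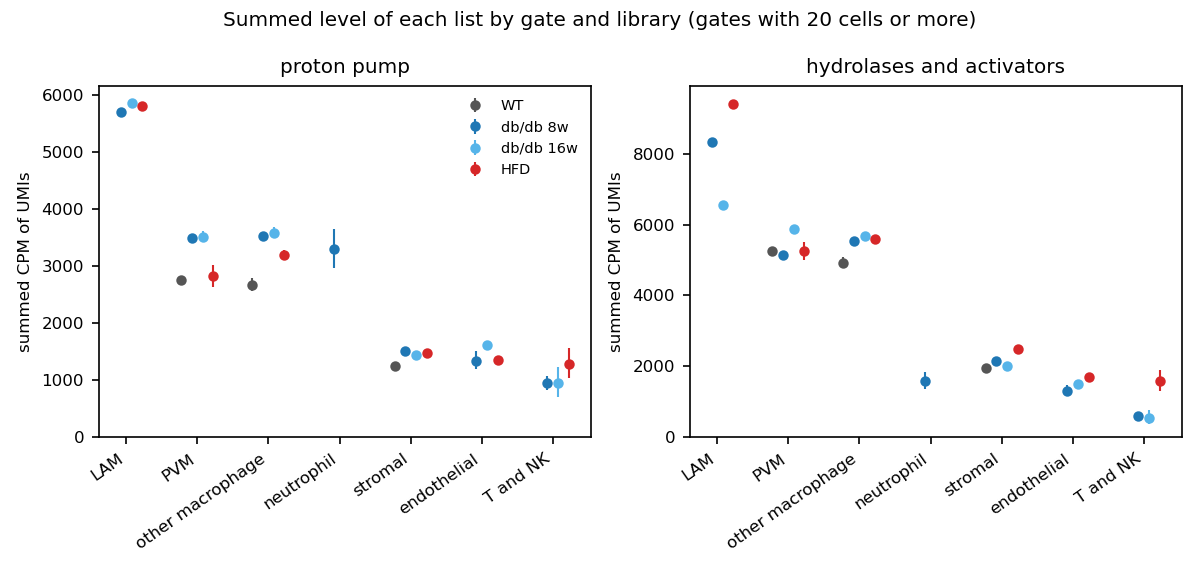
Summed CPM (y axes, from 0) of the 16 pump genes and of the 17 hydrolases and activators by gate (x axis), 1 point per library with its exact 95% Poisson interval, for gates with 20 cells or more. LAMs hold the highest summed pump level, 5698 to 5860 CPM, and T and NK cells 937 to 1274 CPM.

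All 16 pump genes were higher in macrophages than in stromal and endothelial cells. In WT, 8-week db/db, 16-week db/db and HFD, Atp6v0d2 was at 17.1, 251, 263 and 555 CPM in macrophages and 0.738, 18.8, 14.2 and 25.2 CPM in stromal cells. The WT macrophage value lay within the range of the stromal values of the obese libraries, while within each library macrophages were higher (log2 fold change 4.37 ± 0.21 (SE), edgeR adjusted p = 0.000235). Atp6v0d1 was at 94.7, 125, 177 and 108 CPM in macrophages and 47.2, 63.0, 94.2 and 57.4 CPM in stromal cells. These ranges came close without overlapping, and the log2 fold change was smaller (1.10 ± 0.14 (SE), edgeR adjusted p = 0.00145). The catalytic subunit gene Atp6v1a had 212, 355, 230.0 and 385 CPM in macrophages and 54.5, 78.2, 60.5 and 74.8 CPM in stromal cells, again without overlap.

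Among hydrolases Lgmn had the largest log2 fold change over stromal cells, 3.19 ± 0.28 (SE), with 1229.6, 1095, 1312 and 846 CPM in macrophages and 82.1, 158, 211 and 118 CPM in stromal cells, and Gla followed at 3.03. One hydrolase went the other way. Gaa, the acid alpha-glucosidase that degrades glycogen, had 33.7, 28.1, 20.1 and 30.1 CPM in macrophages and 136, 88.7, 62.3 and 138 CPM in stromal cells. Every stromal value was above every macrophage value (log2 fold change -1.73 ± 0.19 (SE), edgeR adjusted p = 0.000995). The 7 genes with no call were Lamp2, Scarb2, Mcoln1, Glb1, Naglu, Smpd1 and Mitf. Ppt1, a thioesterase, passed narrowly (edgeR adjusted p = 0.0483), and 7 alternative settings lost it. Over endothelial cells the largest differences were those of Lgmn (4.41), Atp6v0d2 (4.05) and Pla2g15 (3.83) on the log2 scale, and Neu1, Smpd1, Scarb2, Mcoln1 and Tfe3 did not pass. Gaa had 0 UMIs in the T and NK cells of the 3 libraries tested and 1137 in their macrophages, at least 3.22-fold higher against a floor of 3 UMIs over that gate. With Gaa at that bound the median over T and NK cells was 2.52 on the log2 scale, and 2.71 with its fitted value. The other lysosomal genes gave 28 higher and 4 lower than in stromal cells, 35 and 1 than in endothelial cells and 27 and 1 than in T and NK cells, of 54 tested in each.

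Within the Tfeb family the lineages differed by gene. Tfec was nearly absent from stromal cells, at 0.255, 0.923, 0 and 0.239 CPM in WT, 8-week db/db, 16-week db/db and HFD. In macrophages it was at 15.9, 18.1, 6.51 and 5.29 CPM. Its groups did not overlap, but Tfec passed the filter on low values through macrophages alone, so no fold change is given, and without 8-week db/db it was below that filter. Mitf had 62.6, 76.8, 31.6 and 108 CPM in macrophages and 121, 72.2, 38.9 and 65.2 CPM in stromal cells. It was higher in stromal cells of WT and 16-week db/db and lower in those of the other 2 (0.04 ± 0.28 (SE), edgeR adjusted p = 0.906). Over endothelial cells Mitf was higher in macrophages (3.02 ± 0.30 (SE), edgeR adjusted p = 0.000708). Tfeb had 18.1, 24.7, 25.6 and 39.8 CPM in macrophages and 10.4, 11.7, 9.71 and 8.71 CPM in stromal cells, with no overlap (1.503 ± 0.26 (SE), edgeR adjusted p = 0.0048). Tfe3 had 82.5, 52.5, 35.3 and 76.5 CPM and 43.7, 36.4, 18.7 and 40.6 CPM, higher in macrophages within each library (0.96 ± 0.15 (SE), edgeR adjusted p = 0.00346).

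Exact binomial 95% intervals are given here and cover counting error only. The share of cells with an Atp6v0d2 UMI was counted in gated cells that were then thinned to 1000 UMIs each. It was 30.7% (27.1 to 34.5) of LAMs in 8-week db/db, 21.4% (19.3 to 23.7) in 16-week db/db and 38.3% (35.4 to 41.3) in HFD. In PVMs it was 1.07% (0.490 to 2.02) in WT, 2.88% (2.06 to 3.92) in 8-week db/db, 2.86% (1.31 to 5.35) in 16-week db/db and 9.09% (3.41 to 18.7) in HFD. Each of these LAM intervals lay above all PVM intervals. The 9 LAMs of WT gave 22.2% (2.81 to 60.0), an interval that overlapped those of PVMs. Without thinning the shares were 75.8%, 65.7% and 83.4% of LAMs and 8.42%, 12.4%, 7.93% and 34.8% of PVMs. T and NK cells, which should lack the gene, had none in 69 cells of 8-week db/db (median 3117 UMIs), where a count of 0 (3 counts of the total) allows up to 4.35% of cells with a UMI, none in 31 of 16-week db/db, which allows up to 9.68%, and 3 of 24 (12.5%) in HFD at a median of 3052.5 UMIs. Stromal cells, at medians of 2811 to 6793 UMIs, had it in 0.363% in WT, 4.91% in 8-week db/db, 1.54% in 16-week db/db and 10.8% in HFD before thinning. The unthinned HFD values outside macrophages were thus the highest of the libraries in each of these lineages. For Tfeb the thinned shares were 2.23%, 2.57% and 3.17% in LAMs and 2.29%, 1.59% and 1.52% in PVMs, with overlapping intervals.

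Cycling LAMs, with at least 3 of 8 cell cycle markers, numbered 59, 435 and 118 in 8-week db/db, 16-week db/db and HFD and were compared with the other LAMs of the same libraries. Of the 43 genes, 0 were higher and 17 lower in cycling LAMs, with a median log2 fold change of -0.22. Among 8875 genes tested, 12.9% were higher and 11.7% lower, with a median of -0.02. No gene of the set was higher at an unadjusted p under 0.05 or by DESeq2 either. Without the 16-week db/db library 0 were higher and 17 lower. Cycling LAMs were deeper, with medians of 17259, 11962 and 10945.5 UMIs against 9193.5, 7062.5 and 6907.

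The genes that were lower in cycling LAMs were 8 of 15 hydrolases, both activators, Creg1, Lamp2, Tfe3, Mitf and 3 pump genes. Man2b1, the lysosomal alpha-mannosidase, had 141, 127 and 233 CPM in cycling and 237, 226 and 395 CPM in other LAMs. It was lower in each library (-0.83 ± 0.09 (SE) on the log2 scale, edgeR adjusted p = 2.54e-08). Psap had 4246, 2819.5 and 4756 CPM in cycling and 5442, 4572 and 6152 CPM in other LAMs, also lower in each (-0.53 ± 0.09 (SE), edgeR adjusted p = 3.78e-05). Of the pump, Atp6v0a1 (-0.53), Atp6v0d2 (-0.41) and Atp6v1e1 (-0.41) were lower. Atp6v0c, Atp6v0e, Atp6v1c1 and Atp6v1g1 had log2 fold changes between -0.06 and 0 and did not pass. Without the HFD library 10 genes were lower, namely 3 of 15 hydrolases (Man2b1, Galc and Tpp1), both activators, Creg1, Mitf and the same 3 pump genes, so 5 of the 8 hydrolase calls rested on that library. Of the other lysosomal genes 1 was higher and 18 lower, of 53 tested.

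Finally, each obese library was set against WT. With 1 library per group there was no test, a gene was counted as different past 1.5-fold among genes of at least 10 CPM on average, and intervals (95%, exact conditional binomial) cover counting error only. The 3 ratios share the WT library, and genotype, diet, age and library cannot be told apart. For 16-week db/db the difference in Xist and Y-linked RNA cannot be told apart from these either. Atp6ap1, Atp6ap2, Lamp2, Gla and Tfe3 lie on chromosome X. In the macrophage gate the summed pump RNA was 2775 CPM in WT, 4401 in 8-week db/db, 5466 in 16-week db/db and 5342 in HFD. The log2 ratios to WT were 0.67 (0.64 to 0.69), 0.98 (0.96 to 1.001) and 0.95 (0.92 to 0.97). Hydrolases and activators summed to 5301, 6507, 6422 and 8718 CPM, with log2 ratios of 0.30 (0.28 to 0.31), 0.28 (0.26 to 0.29) and 0.72 (0.70 to 0.74). With cells thinned to 1000 UMIs the 16-week db/db value for hydrolases and activators was 0.52, and with every cell weighing the same it was 0.44. Psap alone held 2519, 3648, 3625 and 5388 CPM of the sums of hydrolases and activators. The median log2 ratios over those 17 genes were 0.08, 0.05 and 0.51. The 4 membrane genes were lower than WT in all 3, with log2 ratios of -0.24, -0.34 and -0.45.

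By gene, 10, 14 and 21 of the 43 were at least 1.5-fold higher than WT in 8-week db/db, 16-week db/db and HFD, and 2, 8 and 3 lower. The shares of all 7457 genes counted were 17.0%, 29.8% and 28.7% higher and 11.5%, 34.5% and 17.2% lower, and the medians of all genes were 0.05, -0.09 and 0.19. Of the pump genes 7, 11 and 10 of 16 were higher and none lower. Of the hydrolases and activators 2, 2 and 8 of 17 were higher and 0, 4 and 1 lower.

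Atp6v0d2 in macrophages was at 17.1, 251, 263 and 555 CPM in WT, 8-week db/db, 16-week db/db and HFD. The log2 ratios were 3.88 (3.61 to 4.16), 3.95 (3.68 to 4.23) and 5.02 (4.75 to 5.30), the largest of the set in each library. Gusb was at 76.7, 171, 205 and 318 CPM and Psap at 2519, 3648, 3625 and 5388 CPM, higher than WT in all 3. Grn was at 1584, 982, 1072 and 960.0 CPM, lower in all 3. The Tfeb family gave Tfeb at 18.1, 24.7, 25.6 and 39.8 CPM, Tfec at 15.9, 18.1, 6.51 and 5.29 CPM, Tfe3 at 82.5, 52.5, 35.3 and 76.5 CPM and Mitf at 62.6, 76.8, 31.6 and 108 CPM. Tfeb was above WT in all 3 libraries and Tfe3 below it, and Tfec and Mitf went both ways. For Tfe3 in HFD the log2 ratio was -0.11 (-0.26 to 0.05), so it was not clearly below WT.

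**Figure D4:**
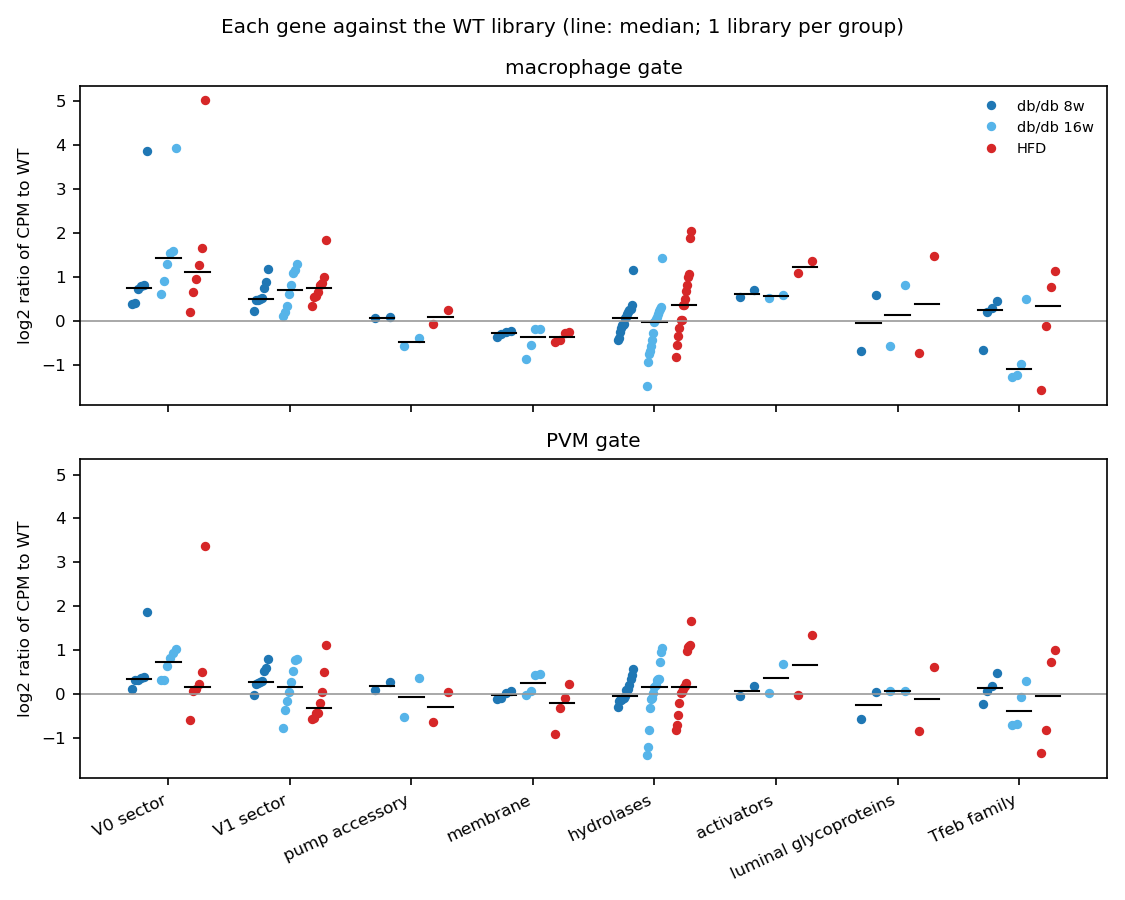
Log2 ratio of CPM to the WT library (y axis) for each gene by group (x axis) in all gated macrophages (upper panel) and in PVMs (lower panel), 1 point per gene and colour per library, with black lines at medians. Atp6v0d2 is the highest point of each panel, at 5.02 and 3.37 in HFD, and the V0 and V1 points of the upper panel, all above 0, fall on both sides of it in the lower.

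The WT macrophage gate was mostly PVMs (843 of 999) and those of 16-week db/db and HFD mostly LAMs (1441 of 2217 and 1073 of 1517), so PVMs were also compared alone. Their summed pump RNA was 2758 CPM in WT, 3494 in 8-week db/db, 3516 in 16-week db/db and 2823 in HFD. The log2 ratios were 0.34 (0.31 to 0.37), 0.35 (0.30 to 0.40) and 0.03 (-0.07 to 0.13), smaller than in the whole gate. In stromal cells the pump gave 0.27 (0.25 to 0.29), 0.21 (0.17 to 0.25) and 0.24 (0.22 to 0.27). Pump RNA above WT was thus not particular to macrophages. The summed membrane genes, lower than WT in the whole gate, gave -0.04 (-0.08 to -0.01), 0.34 (0.29 to 0.39) and -0.57 (-0.71 to -0.43) in PVMs. Their sum was thus higher in PVMs of 16-week db/db. Lamp1 (log2 ratio 0.46) and Scarb2 (0.44) were higher there, while the intervals of Lamp2 (-0.03) and Mcoln1 (0.07) included 0. The log2 ratios of hydrolases and activators were -0.03 (-0.05 to -0.01), 0.16 (0.12 to 0.20) and -0.000793 (-0.07 to 0.07). Of the 43 genes 2, 10 and 11 were at least 1.5-fold higher than WT and 0, 6 and 8 lower. Of the 7577 genes counted, 10.0%, 30.9% and 29.1% were higher and 6.44%, 21.8% and 17.9% lower, with medians of 0.07, 0.13 and 0.17.

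Atp6v0d2 in PVMs was at 14.7, 53.8, 28.2 and 152 CPM, and its log2 ratios of 1.87 (1.53 to 2.23), 0.94 (0.35 to 1.51) and 3.37 (2.82 to 3.91) stayed above 0. The HFD value rested on 46 UMIs in 66 cells. A level above WT was not particular to PVMs. In stromal cells Atp6v0d2 was at 0.738, 18.8, 14.2 and 25.2 CPM, with log2 ratios of 4.67, 4.27 and 5.09. The part of RNA from other cells in these ratios was not tested. Gusb in stromal cells was at 28.8, 45.2, 43.4 and 63.0 CPM, above WT in all 3. In PVMs it was above WT in all 3 too, at 76.1, 114, 157 and 165 CPM. Grn was at 1705, 1152, 1782 and 957 CPM, below WT in 8-week db/db and HFD but not in 16-week db/db (0.06 (-0.00 to 0.13)). Psap was at 2380.2, 2303, 2413 and 2327 CPM, with log2 ratios of -0.05 (-0.08 to -0.01), 0.02 (-0.04 to 0.07) and -0.03 (-0.14 to 0.08).

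In PVMs of HFD, Tfe3 and Tfeb lay on the other side of WT from the whole gate, where the Tfe3 interval included 0. Tfe3 was at 86.1, 73.1, 53.4 and 142 CPM in WT, 8-week db/db, 16-week db/db and HFD, below WT in both db/db libraries and above it in HFD, where the log2 ratio was 0.72 (0.24 to 1.17). Tfeb was at 17.6, 19.9, 21.7 and 9.90 CPM, with log2 ratios of 0.17 (-0.21 to 0.55), 0.30 (-0.34 to 0.90) and -0.83 (-3.13 to 0.76), whose intervals all included 0. Mitf was at 60.6, 63.9, 36.8 and 122 CPM and Tfec at 16.8, 23.3, 15.9 and 6.60 CPM, on both sides of WT.

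The 9 LAMs of WT had 4350.3 CPM of pump RNA (log2 ratios of 0.39 to 0.43 in the obese libraries) and 10339 CPM of hydrolases and activators (-0.66 to -0.14). Psap alone held 7256 CPM of the latter. The median log2 ratios of the 17 hydrolases and activators were 0.04, -0.18 and 0.32 in 8-week db/db, 16-week db/db and HFD.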

How the data were processed

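Single-cell RNA-seq (10x, 3′) was analysed for 4 libraries. The deposited matrices hold raw UMI counts per gene and cell, which the authors made with Cell Ranger (6.0.0 in the file headers, 7.1.0 in the submitters' processing notes) on mm10, the build also called GRCm38. Cells with more than 250 and fewer than 6000 genes, more than 500 and fewer than 30000 UMIs and under 15% mitochondrial UMIs were kept, after the study's limits. A lineage gate required at least 3 of its markers and at least 2 more than any other lineage had. No doublet caller was run, and a stricter gate (at most 1 marker of every other lineage) was an alternative. Levels are UMIs scaled to the gate's sum of UMIs (counts per 1e+06, CPM).

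Gates were compared on sums of at least 20 cells per library, with the library as a block, in edgeR 4.0.16 (quasi-likelihood, TMM, R 4.3.3), for genes of mean CPM of at least 5, with Benjamini-Hochberg adjustment over all genes tested. The libraries are of different groups, so these p-values measure the spread of gate differences between libraries. Alternatives were RLE scaling, DESeq2 1.42.0, no filter, the strict gate, thinning to 1000 UMIs, no mitochondrial limit, other scalings of the ratios and leaving out each library. Sums, intervals and thinning used Python 3.11.15, numpy 2.4.6, scipy 1.17.1 and pandas 2.3.3. Of 32285 gene IDs, 32235 were in the annotation, and 37 of 43 genes were in the RefSeq promoter table.

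The members and lists were chosen with earlier results of these data known. By rule, values were given for Atp6v0d1, Atp6v0d2, the Tfeb family and, in each other group, the 2 genes with the largest and the 1 with the smallest fold change between LAMs and PVMs (1 each for pairs). Other genes named for other lineages, cycling LAMs or the ratios to WT were chosen after their values were seen.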

Additional observations from a re-analysis of the deposited data

How the results depend on the processing

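Across alternatives the count of genes higher in LAMs than in PVMs stayed between 12 and 21, while the count of lower genes, 4, was 2 under the strict gate, 0 with thinned cells and 2 to 6 with 1 library left out. Thinning also turned the log2 fold change of Tfec to 0.035 (edgeR adjusted p = 0.991). In cycling LAMs 10 to 18 genes were lower with 1 library left out. Against T and NK cells 26 to 34 were higher, with 26 when 8-week db/db was left out. The log2 ratios to WT in macrophages moved without changing direction, in the order 8-week db/db, 16-week db/db and HFD. For the pump they were 0.56, 1.05 and 0.91 under the strict gate, 0.50, 0.72 and 0.81 with thinned cells, 0.52, 0.84 and 0.81 with every cell weighing the same and 0.72, 1.10 and 1.02 without mitochondrial and ribosomal protein genes, and 1.02 and 0.79 in 16-week db/db and HFD without the mitochondrial limit. For hydrolases and activators they were 0.22, 0.52 and 0.65 with thinned cells, 0.32, 0.31 and 0.63 without the mitochondrial limit, 0.25, 0.44 and 0.63 with every cell weighing the same and 0.35, 0.40 and 0.79 without mitochondrial and ribosomal protein genes, and 0.23 and 0.37 in 8-week db/db and 16-week db/db under the strict gate. In PVMs of 8-week db/db the strict gate turned their ratio to 0.00567. The cause of these moves was not tested.

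The strict gate and thinning were not run for T and NK cells and for cycling LAMs, where too few libraries kept 20 cells. The 2 gates of a library were paired in each test through the library block. Few cells limit the values of the 9 LAMs of WT, the 24 T and NK cells of HFD and its 66 PVMs.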

Other observations

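Macrophages that passed neither the LAM nor the PVM gate (147 cells in WT, 549 in 8-week db/db, 448 in 16-week db/db and 378 in HFD) held 2666, 3528, 3586 and 3190 CPM of pump RNA. These values lay below those of LAMs in each obese library. Neutrophils, of which 8-week db/db had 81, held 3295 CPM of pump RNA but 1567 CPM of hydrolases and activators, where the PVMs of that library had 3494 and 5144 CPM.

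Glb1, the lysosomal beta-galactosidase, was high in HFD in each lineage with enough cells. It stood at 12.1, 12.9, 15.1 and 45.2 CPM in macrophages of WT, 8-week db/db, 16-week db/db and HFD and at 12.0, 11.5, 14.2 and 40.7 CPM in stromal cells. In endothelial cells of 8-week db/db, 16-week db/db and HFD it stood at 4.82, 3.14 and 13.2 CPM. Tmppe overlaps Glb1 on the same strand, so its reads are less certain. Pla2g15 was low in 16-week db/db, at 82.2, 77.4, 29.4 and 82.8 CPM in macrophages and 20.4, 20.2, 13.6 and 18.9 CPM in stromal cells. Mitf and Tfe3 were also lowest in 16-week db/db in both lineages, with 38.9 CPM of Mitf and 18.7 CPM of Tfe3 in its stromal cells.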
